A study of Homo sapiens with 3 samples.

Results

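The enzymes that build nucleotides and carry one-carbon units were described here through 35 genes of the count table, taken by the identifiers of purine, pyrimidine, deoxynucleotide and folate cycle genes out of 58037 genes in all. The list was drawn up by pathway and uses no measured value as a criterion, although earlier results of these data were known when it was made. Each of the 35 averaged 1 CPM or more over the libraries (CPM are counts scaled to a common library size), as did 16600 genes of the table, so all of them entered the comparisons below. They were read in RWPE1, a line of immortalised, non-tumorigenic human prostate epithelial cells.

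A dividing cell makes purines on a ribose phosphate called PRPP, ring atom by ring atom, until inosinate is formed, and inosinate is then turned into adenylate or guanylate. Pyrimidines are built as a free ring that is joined to PRPP afterwards. Folate carries the one-carbon units that close the purine ring and that make thymidylate, and the same units feed the methionine cycle, which supplies S-adenosylmethionine for methylation. These pathways are drawn on most heavily by cells that copy DNA, and many of their genes are known targets of the MYC transcription factor.

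The study asked what the gene OLFM4, which encodes the secreted glycoprotein olfactomedin 4, does in prostate stem-like and progenitor-like cells. One bulk RNA library was deposited for each of 3 conditions, named OLFM4-wild, OLFM4-knockout and OLFM4-active. Per the study's methods, the OLFM4-knockout cells carried CRISPR/Cas9 double nickase plasmids and the OLFM4-wild reporter cells carried CRISPR activation plasmids for the same gene. The transfected cells were selected in puromycin as stable lines, and RNA was taken from cells sorted for green fluorescent protein. Besides these, the methods describe only the parental RWPE1 cells, which they also call OLFM4-wild. Whether the OLFM4-wild library came from the parental or the reporter cells is not stated in the sources used here. Nor is it stated how the cells labelled OLFM4-active were made, or whether they were the cells with activation plasmids. All 3 libraries came from the same parental line and from ribosomal RNA-depleted, strand-specific total RNA.

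Total counts were 16309906 (OLFM4-wild), 58837147 (OLFM4-knockout) and 23224216 (labelled OLFM4-active). Levels are given as CPM over library sizes scaled by trimmed mean of M values (TMM) factors, and fold changes on the log2 scale with an offset of 0.5 counts. With 1 library per condition there was no replicate error and no test, and every interval below is a 95% Clopper-Pearson interval that covers counting error only. A difference outside its interval is therefore one between libraries. OLFM4 itself had 214 counts (11.8 CPM), 131 counts (2.55 CPM) and 16 counts (0.670 CPM) in the same order, which is the order of every set of 3 values below. The last value goes against that library's label, which is kept here as a name only. Fold changes are named after the libraries they set apart: the knockout comparison is OLFM4-knockout over OLFM4-wild, the active-label comparison is the library labelled OLFM4-active over OLFM4-wild, and the direct comparison is OLFM4-knockout over the library labelled OLFM4-active.

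The scaling mattered for direction. TMM placed each gene 0.35 above its log2 value from library totals in the knockout comparison, 0.11 above it in the active-label comparison and 0.24 above it in the direct comparison. The median of all 16600 genes was 0.10, 0.05 and 0.08 in these comparisons with TMM and -0.26, -0.07 and -0.16 with totals. Values from totals are given beside the medians of the groups. With totals the sign of the log2 fold change turned for 8 of the 35 genes in the knockout comparison (ADSL, CAD, MTHFD1, MTHFD1L, MTR, PRPS1, RRM2 and SHMT1), for 4 in the active-label comparison (DUT, MTHFD2, RRM1 and SHMT2) and for 9 in the direct comparison (ADSL, AHCY, CTPS2, DCK, DHODH, PFAS, PPAT, TK2 and UMPS). All 5 markers of basal prostate epithelium were present in each library, with a summed level of 23847, 51475 and 27986 CPM. The 5 luminal markers summed to at most 2.51 CPM, with KLK2 at 0 counts in every library and KLK3 at 0 counts outside OLFM4-wild. The 5 leukocyte markers summed to 31.4, 24.5 and 19.8 CPM, nearly all of it CD68, with CD3E and LYZ at 0 counts throughout, the 3 endothelial markers summed to at most 0.605 CPM, and the 7 fibroblast and smooth muscle markers summed to 57.9, 43.5 and 35.7 CPM. With TMM all 5 basal markers were higher in the OLFM4-knockout library than in OLFM4-wild, TP63 by the least (0.19, or -0.16 with totals). Whether the basal markers had a part in the values of the enzyme genes was not tested. In a bulk sample, fewer cells of a kind and less RNA per cell cannot be told apart.

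Read together, the 35 genes were higher in both other libraries than in the OLFM4-wild library, by a modest amount. In the knockout comparison their median log2 fold change was 0.44, with quartiles at 0.15 and 0.68, which lies 0.34 above the median of all genes whichever scaling was used. The genes more than 1.5-fold higher numbered 10 of 35, beside 19.1% of all genes, and 1 was more than 1.5-fold lower, beside 15.8%. With library totals the median was 0.08, and 2 genes were higher and 4 lower by that fold, while over all genes the split moved to 6.95% higher and 30.4% lower. The counting interval lay above 0 for 27 genes (42.4% of all genes) and below 0 for 5 (29.8%).

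In the active-label comparison the median was 0.28, which lies 0.23 above that of all genes. Here 11 of 35 genes were more than 1.5-fold higher, beside 12.3% of all genes, and 0 were more than 1.5-fold lower, beside 14.5%. With totals 6 were higher and 2 lower, beside 8.76% and 18.4% of all genes. The counting interval lay above 0 for 27 genes (35.2% of all genes) and below 0 for 4 (28.1%). Among the 9662 protein-coding genes averaging 10 CPM or more, which resemble the enzyme genes more closely in level, the median log2 fold changes were 0.16 and 0.10 in the knockout and active-label comparisons. Of these 9662 genes, 1823 and 997 were more than 1.5-fold higher, and 869 and 692 more than 1.5-fold lower. Their counting interval lay above 0 for 5086 and 4388 and below 0 for 2734 and 2580. Both comparisons share the OLFM4-wild library. As a share of the library's counts, which is the scaling by totals, the 35 genes took 0.353%, 0.381% and 0.457%, lowest in the OLFM4-wild library. Not every role had a higher share in OLFM4-knockout than in OLFM4-wild. The genes of deoxynucleotide supply went from 0.0693% to 0.0667%, and those of the cytosolic and mitochondrial folate cycle from 0.0188% to 0.0179% and from 0.0518% to 0.0453%. The shares of the other roles were higher.

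**Figure D1:**
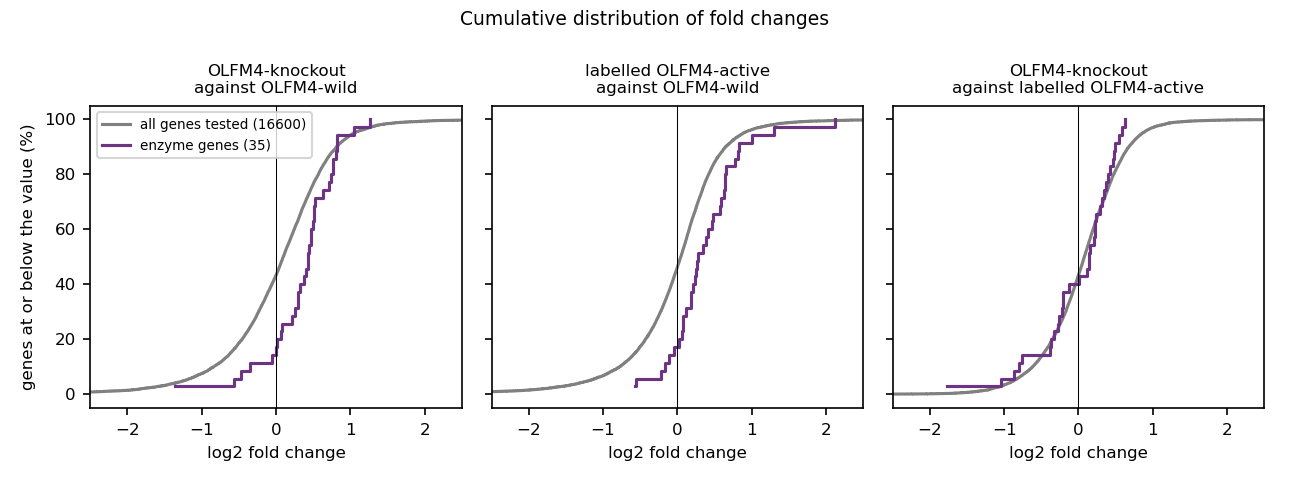
Cumulative share of genes (vertical axis, %) at or below each log2 fold change (horizontal axis, drawn from -2.5 to 2.5) for the 35 enzyme genes and all 16600 genes tested, in the 3 comparisons of libraries. Around its median the curve of the enzyme genes lies to the right of that of all genes in both comparisons with the OLFM4-wild library, with medians of 0.44 and 0.28 against 0.10 and 0.05. In the knockout comparison the curves meet at the upper end, with 2 of 35 and 957 of 16600 genes more than 2-fold higher. In the direct comparison they lie close, with medians of 0.14 against 0.08.

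Per kilobase of the main annotated transcript, NME2 was the most abundant of the genes in every library, at 442, 754 and 503 CPM per kilobase. ALDH1L2 was the least abundant, at 0.489, 0.191 and 0.332 CPM per kilobase. AHCY, IMPDH2 and SHMT2 followed NME2 in the OLFM4-wild library with 113, 105 and 96.2 CPM per kilobase. That order depends on the length used. Per kilobase of all annotated exons, AHCY (62.2), RRM1 (50.5) and SHMT2 (45.2) followed NME2 there, with IMPDH2 at 33.8. MAT2A stood at 42.5, 102 and 186 CPM per kilobase, and in the library labelled OLFM4-active it was exceeded by NME2 alone.

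**Figure D2:**
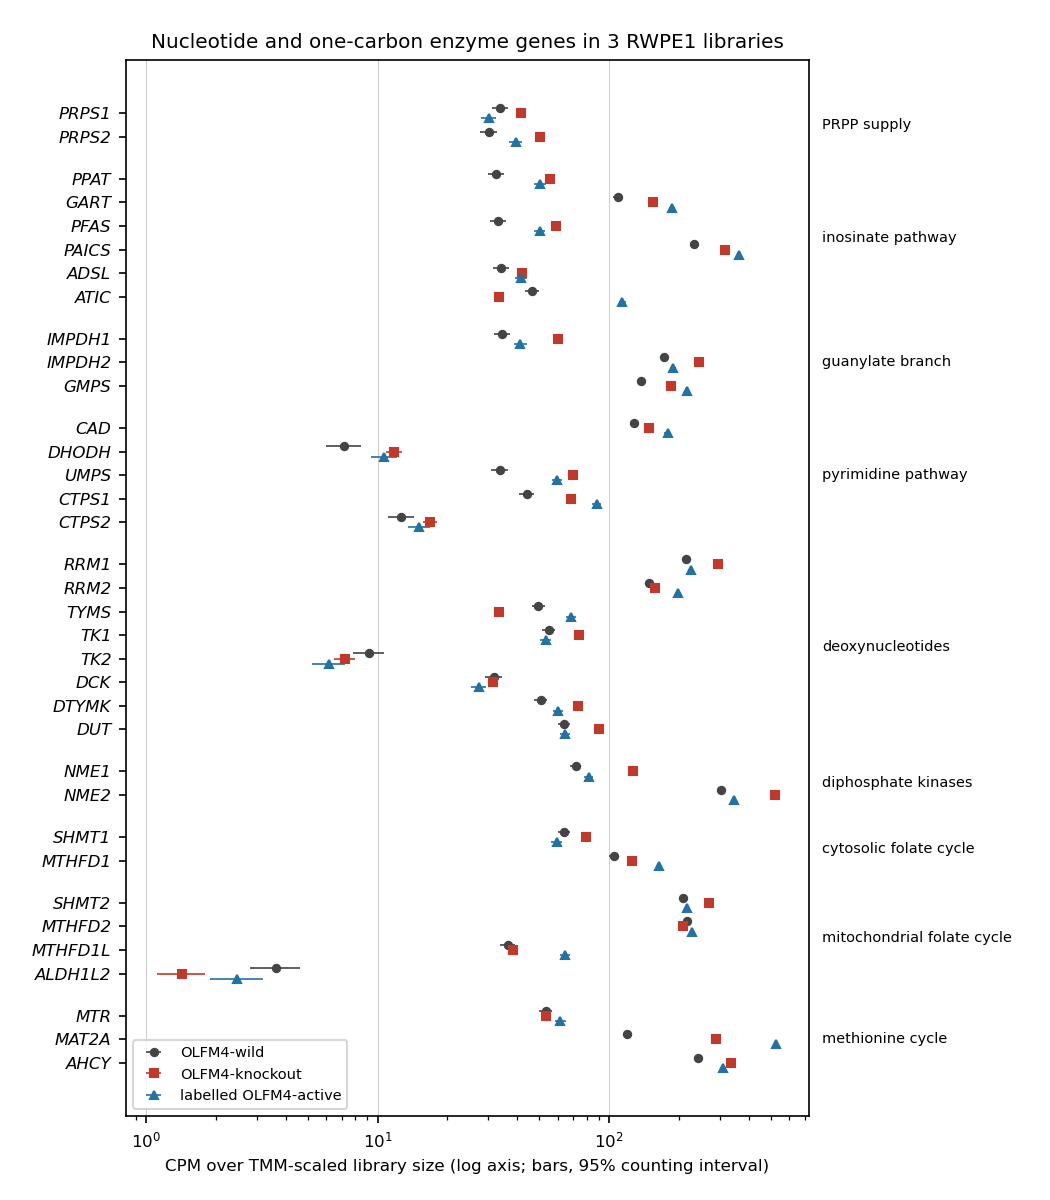
Level of each enzyme gene (horizontal log axis, CPM over the TMM-scaled library size) in the 3 libraries, grouped by role, with bars for the 95% counting interval where it is wider than the symbol. MAT2A (120, 288 and 524 CPM) and ATIC (46.4, 33.3 and 114 CPM) spread widest among the abundant genes, and ALDH1L2, at 3.63, 1.42 and 2.47 CPM, has the widest intervals.

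Promoter sequence was examined because many of these genes are known to be bound by MYC, whose own level was 274, 510.3 and 486 CPM. MYC binds with its partner MAX to a motif called an E-box, CACGTG, which reads the same on both strands. RefSeq promoters of GRCh38.p14, 300 bases long with 250 before the start of transcription and 50 after it, were at hand for 31 of the 35 genes, and IMPDH2, ADSL, ALDH1L2 and SHMT2 had no entry. CACGTG was found in 8 of the 31 (25.8%). The share was 12.5% of the 11015 tested genes that have such a window and 8.79% of all 27195 genes with one. A gene with several windows was counted if any of them held the motif. Taken by window, the shares were 20.0%, 9.34% and 7.27% in the same order. The 8 were PPAT, PAICS and ATIC of the purine pathway, DHODH of the pyrimidine pathway, DCK, NME1, MTHFD1 and MTHFD1L. Their sites are printed below with the motif in capitals, each 30 bases long in the 5′ to 3′ direction of its gene, so that its letters and neighbours can be compared. The sites lie, in the order printed, at chr2:215312001-215312030, chr2:215312076-215312105, chr4:56435780-56435809, chr16:72008573-72008602, chr4:70993521-70993550, chr17:51153579-51153608, chr14:64388326-64388355 and chr6:150866320-150866349, on the plus strand in every case but PPAT. Counted from the start of transcription, the motif begins at -46 and 30 in ATIC, and at -15 in MTHFD1.
ATIC, first site: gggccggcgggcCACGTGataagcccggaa
ATIC, second site: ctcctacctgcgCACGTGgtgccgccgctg
PPAT: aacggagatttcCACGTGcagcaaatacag
DHODH: gccgctactgcgCACGTGcacccaaccaga
DCK: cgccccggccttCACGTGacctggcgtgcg
NME1: caagtgctgcgaacCACGTGggtcccgggc
MTHFD1: ccagtccctaagCACGTGggttgggttgtc
MTHFD1L: cacgcccggctcCACGTGcgcagccggccg

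In the knockout comparison the log2 fold changes of the genes with this motif were 0.81 for NME1, 0.77 for PPAT, 0.72 for DHODH, 0.44 for PAICS, 0.26 for MTHFD1 (-0.09 with totals), 0.07 for MTHFD1L (-0.28 with totals), -0.0046 for DCK and -0.48 for ATIC. In the active-label comparison they were 0.19 for NME1, 0.63 for PPAT, 0.57 for DHODH, 0.65 for PAICS, 0.64 for MTHFD1, 0.83 for MTHFD1L, -0.21 for DCK and 1.30 for ATIC. ATIC was thus below 0 in the first and the furthest above it in the second. DCK was below 0 in the second, and in the first its counting interval (-0.14 to 0.14) included 0. A match is a description of letters and not of binding. The motif of E2F factors, which drive genes of S phase, was searched as TTTCCCGC or TTTGGCGC on both strands and was found in 7 of the 31 genes (22.6%), beside 4.53% of tested genes. These were PRPS2, GART, TYMS, DCK, DUT, MTR and AHCY, and DCK alone held both motifs. The motif TGATGNAAT, to which ATF4 binds in genes of the amino acid response, was found in 1 of the 31, MTHFD1L, beside 0.717% of tested genes.

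PPAT and PAICS lie head to head on chromosome 4, so that the enzymes of the first step of purine synthesis and of a pair of later steps are read from a shared stretch between them. The E-box printed for PPAT, chr4:56435792-56435797, is also the one in the PAICS window on the other strand, where it begins at 41 from the RefSeq start of PAICS. The whole interval between the annotated ends of these genes, chr4:56435616-56435740 on the plus strand of GRCh38, is 125 bases long with 76% G and C, and holds no CACGTG. It is shown because both genes were higher in the other libraries than in OLFM4-wild.
PPAT to PAICS interval: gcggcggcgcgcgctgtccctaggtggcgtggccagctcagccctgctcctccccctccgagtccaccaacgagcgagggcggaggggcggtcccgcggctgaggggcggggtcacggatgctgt

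PRPP is supplied by PRPP synthetase, of which PRPS1 and PRPS2 are the common forms. PRPS2 stood at 30.2, 50.4 and 39.6 CPM. PRPS1 stood at 33.8, 41.5 and 30.2 CPM. PRPS2 was thus lowest in the OLFM4-wild library, at 0.74 (0.60 to 0.87) and 0.39 (0.24 to 0.54) on the log2 scale in the knockout and active-label comparisons, the order kept below. PRPS1 had 0.30 and -0.16, the first of which was -0.06 with library totals. Within a library, 100 counts of PRPS1 were matched by 89.4 (79.5 to 100.5), 121 (114 to 128) and 131 (119 to 145) counts of PRPS2.

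The 6 genes of the inosinate pathway had median log2 fold changes of 0.47 and 0.64, or 0.12 and 0.52 with totals. PPAT, the amidotransferase that commits PRPP to purine synthesis, had 591, 2846 and 1202 counts, or 32.5, 55.4 and 50.3 CPM. PFAS, which adds a ring nitrogen, stood at 33.2, 58.7 and 50.1 CPM, and GART, which carries 3 activities of the pathway on 1 protein, at 109, 155 and 188 CPM. PAICS, with a pair of activities, stood at 233, 316 and 364 CPM, and ADSL, which releases fumarate here and in the adenylate branch, at 34.2, 41.96 and 41.6 CPM. In each of these 5 genes the OLFM4-wild library was the lowest of the 3. Their values in the knockout comparison were 0.77 for PPAT, 0.82 for PFAS, 0.51 for GART, 0.44 for PAICS and 0.29 for ADSL, the last being -0.06 with totals. In the active-label comparison they were 0.63, 0.59, 0.78, 0.65 and 0.28, with positive values under totals as well.

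ATIC, the bifunctional enzyme that closes the purine ring with a folate one-carbon unit, went another way. It is listed as ENSG00000138363.14 and lies on the plus strand of chr2:215311956-215349773. It had 843, 1711 and 2724 counts, or 46.4, 33.3 and 114 CPM. The OLFM4-knockout library was the lowest and the library labelled OLFM4-active the highest. The log2 fold changes against the OLFM4-wild library were -0.48 (-0.60 to -0.36) and 1.30 (1.19 to 1.41), and -0.83 and 1.18 with totals. In the direct comparison it stood at -1.77 (-1.86 to -1.69), a level 3.42-fold lower, at percentile 0.298 of all genes. In the active-label comparison 5 of the 6 inosinate genes were more than 1.5-fold higher (12.3% of all genes), or 2 of 6 with totals (8.76%), and ATIC was the furthest of them.

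The guanylate branch turns inosinate into guanylate through IMP dehydrogenase, its rate-limiting enzyme, and GMP synthetase. IMPDH1 stood at 34.4, 60.2 and 41.4 CPM, IMPDH2, the form that dividing cells mostly use, at 173, 244 and 188 CPM, and GMPS at 138, 185 and 216 CPM. All 3 were lowest in the OLFM4-wild library. The IMP dehydrogenases were highest in the OLFM4-knockout library, with log2 fold changes of 0.81 and 0.50 in the knockout comparison, and GMPS was highest in the library labelled OLFM4-active, with 0.65 (0.58 to 0.72). Per kilobase of the main annotated transcript, IMPDH2 exceeded IMPDH1 by a ratio of 7.96, 6.41 and 7.20. Per kilobase of all annotated exons the ratio was 3.34, 2.69 and 3.02.

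All 5 genes of the pyrimidine pathway had counting intervals above 0 with TMM in both comparisons with the OLFM4-wild library, beside 42.4% and 35.2% of all genes, with median log2 fold changes of 0.64 and 0.57 (0.28 and 0.46 with totals). UMPS, which makes uridylate from orotate and PRPP, moved the most of them in the OLFM4-knockout library. It is listed as ENSG00000114491.13, lies at chr3:124730433-124749273, and stood at 33.6, 69.8 and 59.5 CPM, with log2 fold changes of 1.05 (0.93 to 1.18) and 0.82 (0.69 to 0.96). CTPS1, one of the synthetases that make CTP from UTP, stood at 43.97, 68.4 and 88.4 CPM, with 0.64 (0.53 to 0.75) and 1.01 (0.89 to 1.13). CTPS1 was highest in the library labelled OLFM4-active, and UMPS in the OLFM4-knockout library with TMM but not with totals (0.23 and -0.0074 in the direct comparison).

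CAD, the protein that carries the first 3 activities, stood at 128, 148 and 179 CPM, and its log2 fold change of 0.21 in the knockout comparison was -0.14 with totals. DHODH, the mitochondrial dehydrogenase of the pathway, was a low gene at 7.15, 11.8 and 10.7 CPM, with wide intervals of 0.44 to 1.005 and 0.27 to 0.89. CTPS2, the second synthetase, stood at 12.7, 16.8 and 15.1 CPM. The forms of CTP synthetase parted in the library labelled OLFM4-active, with 347 (299.6 to 404), 407 (377 to 439) and 585 (523 to 656) counts of CTPS1 per 100 of CTPS2.

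The 8 genes of deoxynucleotide supply differed less. Their median log2 fold change was 0.26 in the knockout comparison and -0.09 with totals, and it was 0.05 and -0.07 with totals in the active-label comparison. By TMM, 0 of 8 were past 1.5-fold in either comparison. Of all genes, 19.1% were higher and 15.8% lower by that fold in the first, and 12.3% and 14.5% in the second. With totals TYMS (-0.92) and TK2 (-0.70) were lower by that fold in the first, beside 30.4% of all genes. In the second TK2 (-0.68) was, beside 18.4%. RRM1, the large subunit of ribonucleotide reductase, stood at 214, 296 and 225 CPM, and RRM2, the small subunit that dividing cells make in S phase, at 149, 158 and 199 CPM. RRM1 was thus highest in the OLFM4-knockout library and RRM2 in the library labelled OLFM4-active, and per 100 counts of RRM1 there were 69.6, 53.4 and 88.3 counts of RRM2.

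TYMS, which makes thymidylate from deoxyuridylate and is the target of fluorouracil, was the lowest of the 8 in the knockout comparison. It is listed as ENSG00000176890.15, lies at chr18:657653-673578, and had 898, 1710 and 1632 counts, or 49.4, 33.3 and 68.3 CPM. The OLFM4-knockout library was the lowest of the 3 and the library labelled OLFM4-active the highest, as for ATIC. The log2 fold changes were -0.57 (-0.69 to -0.45) and 0.47 (0.35 to 0.59). Thymidine kinase TK1, which salvages thymidine in S phase, stood at 54.9, 74.3 and 53.3 CPM, DTYMK at 50.7, 73.3 and 60.1 CPM, and DUT, which removes dUTP, at 63.7, 90.7 and 64.7 CPM. These 3 were highest in the OLFM4-knockout library, with 0.44, 0.53 and 0.51 in the knockout comparison. Mitochondrial TK2 (9.14, 7.21 and 6.15 CPM) was highest in the OLFM4-wild library, with -0.34 and -0.57, and DCK, deoxycytidine kinase, had 31.7, 31.6 and 27.3 CPM.

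Genes of the cell cycle differed between the same libraries. Among 18 S phase genes the median log2 fold change was 0.60 in the knockout comparison, with 9 of 18 more than 1.5-fold higher (19.1% of all genes), and 0.13 in the active-label comparison, with 0 of 18 (12.3%). With totals the medians were 0.24 and 0.01, with 2 and 0 of 18 higher by that fold (6.95% and 8.76% of all genes). Among 14 mitosis genes the medians were -0.33 and -0.30, with 4 and 2 of 14 more than 1.5-fold lower (15.8% and 14.5% of all genes) and 0 higher. With totals their medians were -0.69 and -0.42, with 9 and 4 of 14 lower by that fold (30.4% and 18.4% of all genes). Their part in the values of the deoxynucleotide enzymes was not tested.

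The nucleoside diphosphate kinases NME1 and NME2, which charge diphosphates to triphosphates, were higher in the OLFM4-knockout library than in both others. NME1 stood at 71.7, 126 and 81.7 CPM and NME2 at 305, 521 and 347 CPM. Their log2 fold changes in the knockout comparison were 0.81 and 0.77, and 0.46 and 0.42 with totals, whereas both were at 0.19 in the active-label comparison. The pair kept its proportion, with 426 (401 to 452), 413 (401 to 424) and 425 (404 to 447) counts of NME2 per 100 of NME1. The table also lists a read-through gene, NME1-NME2, with 6230, 30296 and 9251 counts, whose exons share 638 bases with NME1 and 603 with NME2 on the same strand, so the split of reads among the 3 entries is uncertain.

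**Figure D3:**
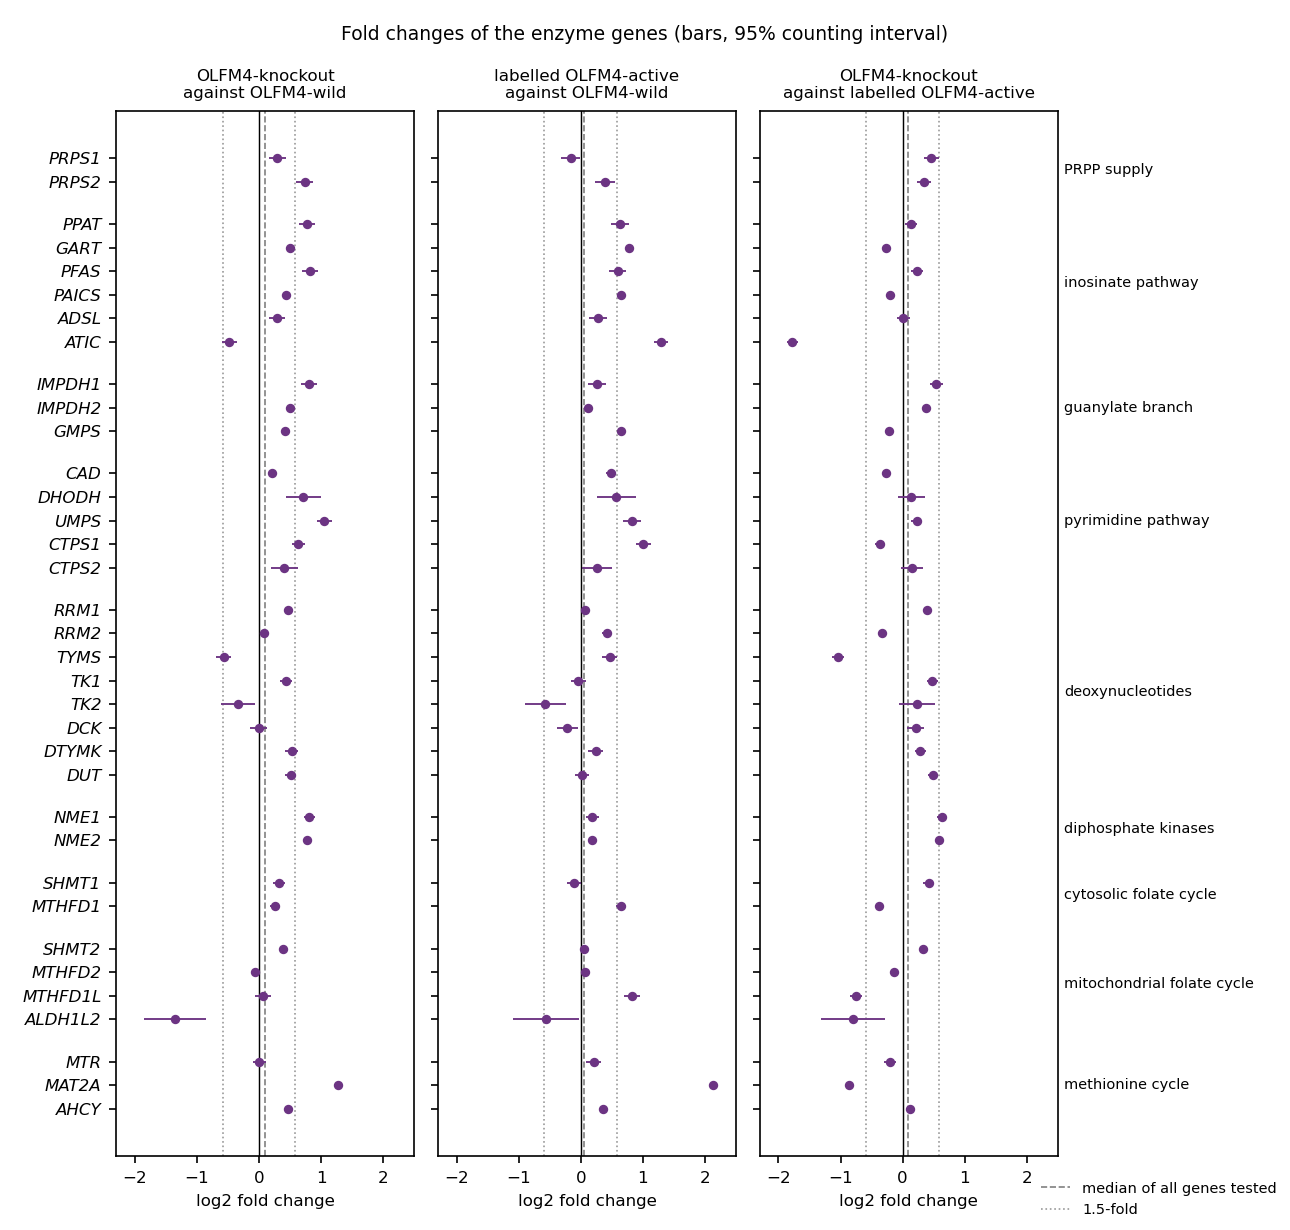
Log2 fold change of each enzyme gene (horizontal axis) in the 3 comparisons of libraries, grouped by role, with bars for the 95% counting interval, a dashed line at the median of all genes tested and dotted lines at 1.5-fold. MAT2A lies furthest right in both comparisons with the OLFM4-wild library (1.27 and 2.13), ALDH1L2 furthest left in the first (-1.35), and ATIC furthest left in the third (-1.77).

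The folate cycle runs in the cytosol and in the mitochondrion. In the cytosol, SHMT1, which takes a one-carbon unit from serine, stood at 63.8, 79.6 and 59.3 CPM, and MTHFD1, which interconverts the folate forms, at 105, 126 and 164 CPM. SHMT1 was highest in the OLFM4-knockout library (0.32 in the knockout comparison, but -0.04 with totals), and MTHFD1 in the library labelled OLFM4-active (0.64). In the mitochondrion SHMT2 stood at 208, 271 and 216 CPM and MTHFD2, the dehydrogenase typical of dividing cells, at 218, 209 and 229 CPM. The log2 fold changes of MTHFD2 were -0.06 and 0.07, and -0.41 and -0.04 with totals.

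MTHFD1L, which releases formate from the mitochondrion for use in purine synthesis, stood at 36.4, 38.3 and 64.6 CPM. The OLFM4-wild and OLFM4-knockout libraries did not differ beyond counting error with TMM (0.07, -0.06 to 0.20), the value with totals being -0.28, and the library labelled OLFM4-active was higher than the OLFM4-wild library by 0.83 (0.69 to 0.96). Per 100 counts of MTHFD2 there were 16.7 (15.4 to 18.2), 18.3 (17.4 to 19.2) and 28.2 (26.7 to 29.9) counts of MTHFD1L. ALDH1L2, which burns the one-carbon unit to carbon dioxide while making NADPH, had only 66, 73 and 59 counts, or 3.63, 1.42 and 2.47 CPM. It was the 1 gene of the 35 more than 1.5-fold lower in the knockout comparison, at -1.35 (-1.85 to -0.85), and its interval in the active-label comparison, -1.09 to -0.03, nearly reached 0.

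The methionine cycle held the gene that differed most. MAT2A, the enzyme that joins methionine and ATP to S-adenosylmethionine outside the liver, is listed as ENSG00000168906.12 and lies on the plus strand of chr2:85539168-85545281. It had 2175, 14804 and 12519 counts, or 120 (115 to 125), 288 (284 to 293) and 524 (515 to 533) CPM. The OLFM4-wild library was the lowest, the library labelled OLFM4-active the highest, and no intervals overlapped. The level was 2.41-fold higher in the knockout comparison, or 1.27 (1.20 to 1.33) on the log2 scale, and 4.38-fold higher in the active-label comparison, or 2.13 (2.06 to 2.20). With totals the values were 0.92 and 2.01. MAT2A lay at percentiles 97.1 and 99.6 of all genes tested. The 250 bases before its annotated start, chr2:85538918-85539167 of GRCh38 on the plus strand, are shown because they carry the promoter of this gene. They hold 71.6% G and C and no CACGTG.
MAT2A promoter: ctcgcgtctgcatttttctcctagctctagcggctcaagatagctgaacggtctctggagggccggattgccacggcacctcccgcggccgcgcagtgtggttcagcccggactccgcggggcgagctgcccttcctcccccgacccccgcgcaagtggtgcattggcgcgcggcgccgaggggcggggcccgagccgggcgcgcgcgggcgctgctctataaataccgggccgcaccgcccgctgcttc

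The other genes of the cycle differed less. AHCY, which clears S-adenosylhomocysteine, stood at 242, 335 and 309 CPM, with log2 fold changes of 0.47 and 0.35. MTR, methionine synthase, stood at 53.3, 53.5 and 61.6 CPM. Per 100 counts of AHCY there were 49.4 (46.9 to 52.04), 85.99 (84.1 to 87.9) and 169 (165 to 174) counts of MAT2A.

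Ratios of this kind need no library scaling, and 3 of the 13 pairs read differed between libraries by the widest factor, MAT2A to AHCY among them. ATIC and PAICS both act late in the inosinate pathway, with ADSL between them, and per 100 counts of PAICS there were 19.9 (18.5 to 21.5), 10.5 (10.03 to 11.1) and 31.3 (29.99 to 32.7) counts of ATIC. For TYMS per 100 counts of RRM1 the values were 23.1 (21.5 to 24.9), 11.3 (10.7 to 11.8) and 30.4 (28.7 to 32.1). In both, the OLFM4-knockout library had the lowest ratio and the library labelled OLFM4-active the highest. The pairs were picked after their values were seen.

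**Figure D4:**
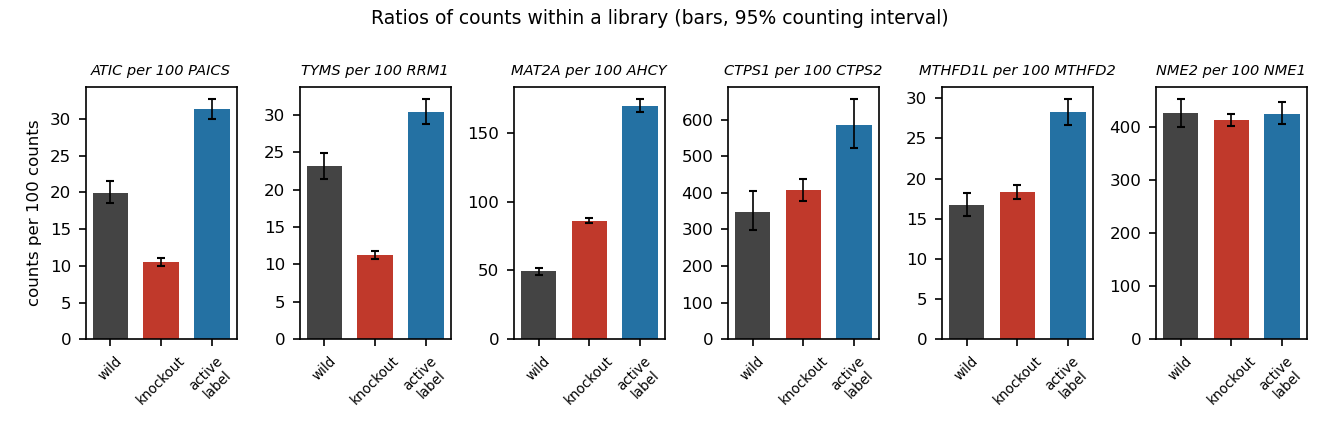
Counts of one gene per 100 counts of a partner in the same library (vertical axes, each from 0), with bars for the 95% counting interval. ATIC per 100 PAICS (19.9, 10.5 and 31.3) and TYMS per 100 RRM1 (23.1, 11.3 and 30.4) were lowest in the OLFM4-knockout library, MAT2A per 100 AHCY was 49.4, 85.99 and 169, and NME2 per 100 NME1 had overlapping intervals.

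In the direct comparison the 35 genes lay near the rest. Their median log2 fold change was 0.14 with TMM and -0.10 with totals, next to 0.08 and -0.16 for all genes. The counting interval lay above 0 for 17 genes (39.8% of all genes) and below 0 for 14 (28.0%). The genes more than 1.5-fold higher numbered 1, NME1 at 0.63, beside 14.0% of all genes, and those more than 1.5-fold lower numbered 5, beside 10.9%. The 5 were ATIC (-1.77), TYMS (-1.04), MAT2A (-0.86), ALDH1L2 (-0.80) and MTHFD1L (-0.76), each with its interval below 0. With totals 0 were higher and 7 lower by that fold, beside 5.85% and 20.3% of all genes. As background, ATIC, TYMS, MTHFD1L and ALDH1L2 act on folates, and MAT2A on methionine. Folate genes did not move as one. Of the other genes of the folate cycle, SHMT1 (0.42) and SHMT2 (0.32) were above 0, and MTHFD1 (-0.39) and MTHFD2 (-0.13) below it. The 11 tested genes of folate uptake and interconversion, described below, had a median of 0.35 (0.11 with totals). Since OLFM4 was low in both libraries, this comparison does not set a low against a high OLFM4 level.

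The genes around these pathways were read from lists of their other enzymes and carriers. Among 15 genes of purine salvage and interconversion the median log2 fold changes were 0.32 and 0.19 in the knockout and active-label comparisons, and -0.03 and 0.07 with totals. In the first 5 of 15 were more than 1.5-fold higher (19.1% of all genes), or 2 with totals (6.95%). The former included APRT (1.26), PNP (1.12), GUK1 (0.62) and ADK (0.61), of which APRT salvages adenine and PNP splits nucleosides to free bases. NT5E, the surface enzyme CD73 that makes adenosine outside the cell, was lower in both libraries, at 25.8, 10.1 and 14.7 CPM. HPRT1, which salvages hypoxanthine and guanine, stood at 17.0, 20.5 and 37.5 CPM and was the furthest higher in the library labelled OLFM4-active, at 1.15, where ADK (0.63) and ADSS2 (0.68) were also past 1.5-fold and AK1 (-0.61) and NT5E (-0.81) lower.

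Among 16 genes of pyrimidine salvage and deoxynucleotide control the medians were 0.07 and 0.03, and -0.29 and -0.09 with totals, but single genes lay far from them. UPP1, uridine phosphorylase, stood at 27.3, 72.1 and 77.6 CPM, with log2 fold changes of 1.40 and 1.51. CMPK2, a mitochondrial kinase known as an interferon-induced gene, stood at 10.7, 1.48 and 1.09 CPM, with -2.84 and -3.27. SAMHD1, which degrades deoxynucleotides, stood at 77.9, 40.8 and 32.2 CPM, and RRM2B, the ribonucleotide reductase subunit induced by p53, at 28.9, 17.0 and 17.2 CPM. CMPK2, SAMHD1 and RRM2B were thus highest, and UPP1 lowest, in the OLFM4-wild library. The others past 1.5-fold were NME3 (0.99), DCTPP1 (0.62) and UCKL1 (0.60) in the knockout comparison and TYMP (-1.05) in the active-label comparison.

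Folate uptake and interconversion had 11 of 14 genes above the minimum level, with medians of 0.57 and 0.06 (0.22 and -0.06 with totals). SLC25A32, which carries folate into mitochondria, stood at 24.4, 55.8 and 56.2 CPM, and SLC19A1, the reduced folate carrier, at 11.7, 24.3 and 21.4 CPM. Both carriers were higher in both libraries than in the OLFM4-wild library, by 1.19 and 1.20 for SLC25A32 and by 1.05 and 0.87 for SLC19A1. The proton-coupled carrier SLC46A1 was not, at 14.97, 11.96 and 9.21 CPM. FPGS (0.73), MTHFD2L (0.67) and MTFMT (0.64) were past 1.5-fold in the OLFM4-knockout library. FOLR1, ALDH1L1 and FTCD were under the minimum.

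Serine and glycine supply, with 7 genes, had medians of 0.15 and 0.22 (-0.20 and 0.10 with totals). GCSH of the glycine cleavage system was higher in both libraries, at 8.86, 16.7 and 18.8 CPM, and AMT of the same system lower, at 2.37, 1.17 and 1.21 CPM, while GLDC had 0.60 in the OLFM4-knockout library and PSAT1 0.65 in the library labelled OLFM4-active. Of the other enzymes of the methionine cycle, 6 of 9 were above the minimum, with medians of 0.06 and 0.33 (-0.29 and 0.22 with totals). MAT2B, the regulatory subunit that pairs with MAT2A, stood at 61.9, 60.1 and 77.8 CPM, with log2 fold changes of -0.04 and 0.33 beside 1.27 and 2.13 for MAT2A. CBS (1.47) and AHCYL2 (0.67) were past 1.5-fold in the library labelled OLFM4-active.

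**Figure D5:**
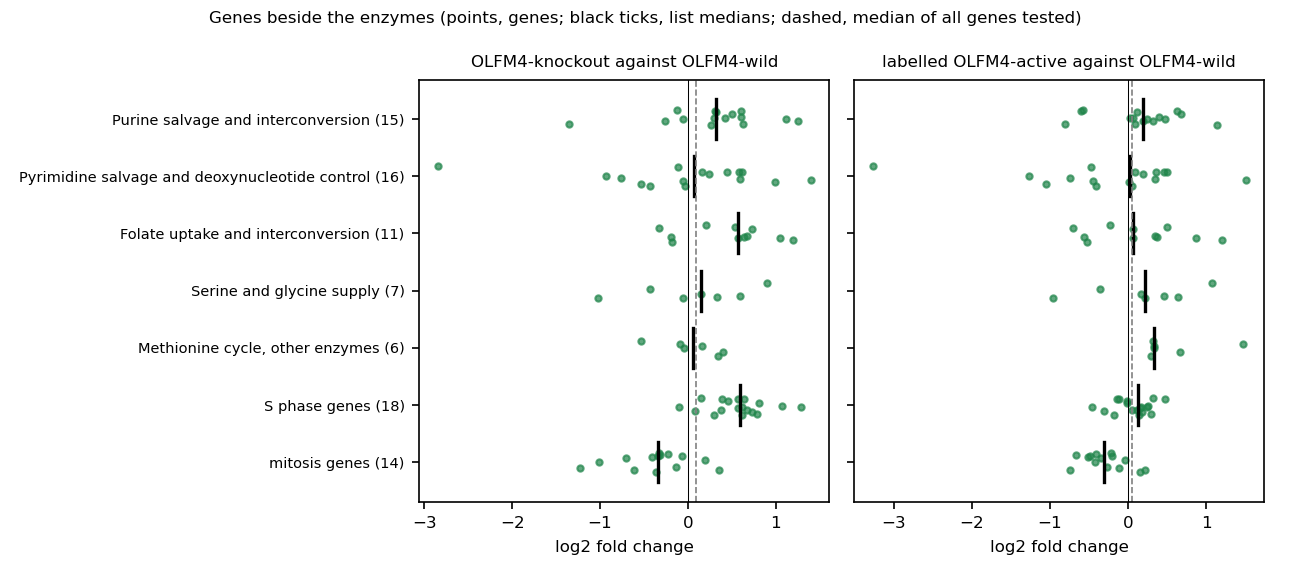
Log2 fold changes (horizontal axes) of genes beside the enzymes, by list, in the knockout comparison (left) and the active-label comparison (right), with the number of genes above the minimum level in brackets, black ticks at list medians and a dashed line at the median of all genes tested. The S phase genes lie at a median of 0.60 in the first and 0.13 in the second, the mitosis genes at -0.33 and -0.30, and CMPK2 lies furthest left in both (-2.84 and -3.27).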

How the data were processed

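Total RNA of 3 RWPE1 samples, 1 per condition, was analysed from a deposited table of whole-number counts per gene. The authors aligned read pairs to GRCh38 with HISAT2 and counted uniquely mapped, reversely stranded pairs with featureCounts, without normalization, and the submitters' processing notes also name cutadapt. Reads shared by near-identical genes were thus not counted, and 15 of the 35 genes have annotated pseudogenes. Of 58037 identifiers, 56948 matched GENCODE 44, used for positions and lengths, and each column named its library. Exons of DCK and AHCY share 199 and 139 bases with another gene on the same strand, and those of TK2 share 457.

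TMM factors of 1.11, 0.872 and 1.03 came from edgeR 4.0.16, and log2 values follow voom of limma 3.58.1, in R 4.3.3 and Python 3.11.15. Genes averaging 1 CPM or more over the libraries were compared. A gene was counted past a 1.5-fold difference. Intervals are conditional Clopper-Pearson intervals at 95%, which cover counting error only. A count of 3, the detection floor, is 0.165, 0.0584 and 0.126 CPM. The script was tested on simulated data.

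The text names all 35 genes by role, and from each list of neighbouring genes those past 1.5-fold in either comparison with the OLFM4-wild library. A few items under this rule are not reported here. MAT2B, and S phase and mitosis genes as lists, are given besides, and the members and lists were chosen with earlier results of these data known. Alternatives were library totals, upper quartile factors and the size factors of DESeq2 1.42.0 in place of TMM, an offset of 5 counts, no filter, sizes that leave out the 10 most abundant genes, and libraries thinned to the smallest total. Leaving out the library labelled OLFM4-active was chosen after seeing the data.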

Additional observations from a re-analysis of the deposited data

How the results depend on the processing

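With library totals in place of TMM factors, the knockout comparison had 2 genes more than 1.5-fold higher, 4 lower and a median of 0.083. The active-label comparison then had 6 higher and 2 lower, and the direct comparison had 0 higher and a median of -0.096, a turn in direction. By construction, totals shift all genes of a comparison by the same amount. With upper quartile factors, 2 genes were lower in the knockout comparison, and in the direct comparison 0 were higher with a median of 0.037. With all libraries thinned to the smallest total, 2 were higher in the direct comparison, and the cause was not tested. Under totals the sign changed for 8, 4 and 9 of the 35 genes, and no gene past 1.5-fold changed sign. With the library labelled OLFM4-active left out, the knockout comparison had 10 higher and 1 lower, with a median of 0.49. No paired analysis was possible because each condition had 1 library, and for the same reason no replicate could be left out. Depth limited ALDH1L2, DHODH, TK2 and CTPS2 most.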
